A study of Homo sapiens with 39 samples.

Results

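C11orf86 is a protein-coding gene of chromosome 11 that was near silent in parental HCT116 cells and abundant in most lines that carried an HNF4A isoform. It is 1 of the 45435 genes of the deposited tables, and a single row bears its name. The gene was selected on its measured levels in these same libraries, under the label of most sensitive HNF4A response gene. That label belongs to the selection and was not tested. With HNF4A left aside, the gene's rise ranked 3rd among tested genes in isoform 1 and 204th in isoform 6. Its levels, fold changes and order across lines are therefore given as a description with no test. Tests are kept for other genes.

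The 39 RNA-seq libraries came from HCT116, a human colorectal cancer cell line, in 13 groups of 3. The parental cells were the Flp-In T-REx host line and held no construct. Each other group was 1 stable line holding a single inserted copy of 1 of the HNF4A isoforms 1 to 12, joined to GFP at its C-terminus and switched on by doxycycline. Every group, the parental cells included, received 2.5 µg/ml doxycycline for 48 h. Until induction, the host line grew under blasticidin S and zeocin and the isoform lines under blasticidin S and hygromycin B. An isoform is represented by 1 line and no group expressed GFP alone, so isoform, line, GFP and earlier antibiotic cannot be told apart. The labels do not say that the 3 libraries of a group came from separate cultures. Any p-value then measures only the spread between these libraries, which may be technical.

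HNF4A is a nuclear receptor that binds DNA as a homodimer and activates genes of hepatocytes and of the absorptive epithelium of the gut. Its isoforms arise from a pair of promoters and from splicing at both ends of the protein. Isoforms 1 to 3 have the activation domain at the N-terminus, isoforms 4 to 6 carry the added exon 1B, and isoforms 7 to 9 and 10 to 12 start from the other promoter and lack that domain. Isoforms 3, 6, 9 and 12 have a shortened C-terminus, and isoforms 2, 5, 8 and 11 have a full C-terminus with a small insertion. These classes come from the standard nomenclature and not from the labels. C11orf86 is listed in RefSeq with the synonym FACI, a name for a fasting-induced protein of liver and intestine that is a target of CREB-H, the transcription factor encoded by CREB3L3.

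In GENCODE v29 (GRCh38) C11orf86 lies on the plus strand of chromosome 11, from 66975277 to 66977004. Its only annotated transcript has 2 exons. Exon 1 runs from 66975277 to 66975638 and exon 2 from 66976180 to 66977004, and the coding part of 345 bases, stop codon left out, encodes 115 residues. The transcript is 1187 bases long. A transcript quantifier of the kind the submitters name assigns reads by short words of sequence, so shared words would make the level uncertain. Of the 1157 words of 31 bases in the transcript, 0 occurred in a transcript of another gene of the same annotation. The coding bases across the splice junction are shown because reads over them can come only from the spliced transcript. Exon 2 is in capitals, the first 30 bases are 66975609 to 66975638 and the last 30 are 66976180 to 66976209.
C11orf86 exon junction: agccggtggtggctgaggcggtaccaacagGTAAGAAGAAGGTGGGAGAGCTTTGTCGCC

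A few general measures of the libraries were read. TPM is a level per transcript length, scaled to a fixed sum in each library. The column sums, between 999972.6 and 999987.7, are therefore alike by construction and say nothing of library quality. Between 27884 and 30550 genes were above 0 in a library. The epithelial markers EPCAM (433 to 624 TPM), KRT8, KRT18, KRT19 and CDH1 were present in all libraries. Of the markers of other cell types, COL1A2, DCN, LUM, PTPRC, CD3E, CD14, ALB and TAT stayed at or below 0.659 TPM, and COL1A1 lay between 7.76 and 14.9 TPM. The first library of isoform 3 stood apart, where HNF4A was at 407 TPM, while the other isoform 3 libraries had 833 and 772 TPM. Without it the log2 fold change of C11orf86 in isoform 3 was 4.32 in place of 4.08, and no call in isoform 3 of a gene named here changed.

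In parental cells C11orf86 was at 0.300, 0.139 and 0.213 TPM, a mean of 0.217 ± 0.0805 TPM (SD, n = 3). The authors' deposited tables give a mean normalised count beside each comparison. Divided by the mean TPM of the 6 libraries compared, that count came to between 35.7 and 40.4 counts per TPM in the 12 tables. If the authors' mean runs over those 6 libraries, the parental mean corresponds to about 8.32 counts per library. The parental level therefore rests on few reads, and every ratio to it carries that uncertainty.

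The highest levels were in the lines of isoforms 1 and 2. The isoform 1 libraries had 112.0, 92.3 and 92.1 TPM (mean 98.8 ± 11.4), and the isoform 2 libraries had 94.9, 97.1 and 88.4 TPM (93.5 ± 4.50). These ranges overlapped. The lines that start from the other promoter and have a full C-terminus came next. Isoform 10 had 65.1, 62.8 and 63.8 TPM (63.9 ± 1.15), and isoform 11 had 62.2, 54.5 and 55.0 TPM (57.3 ± 4.32). Isoform 7 had 54.2, 46.5 and 43.7 TPM (48.1 ± 5.45), and isoform 8 had 37.5, 38.2 and 38.6 TPM (38.1 ± 0.557). No neighbouring pair from isoform 2 down to isoform 8 overlapped.

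A middle group was formed by 3 of the 4 lines with a shortened C-terminus. Isoform 3 had 13.8, 25.9 and 21.0 TPM (20.2 ± 6.07), isoform 9 had 17.6, 15.8 and 16.0 TPM (16.5 ± 1.02), and isoform 12 had 16.3, 13.1 and 13.4 TPM (14.3 ± 1.72). Isoform 3 overlapped isoform 9, and isoform 9 overlapped isoform 12. The lowest library of the 6 lines above them, 37.5 TPM in isoform 8, exceeded the highest of these 9 libraries.

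The exon 1B lines formed the lowest group. Isoform 4 had 4.89, 3.05 and 3.77 TPM (3.90 ± 0.930), isoform 5 had 2.24, 1.88 and 1.47 TPM (1.86 ± 0.389), and isoform 6 had 0.940, 0.547 and 0.739 TPM (0.742 ± 0.197). These 3 lines did not overlap each other, the lines above or the parental cells. Even the lowest isoform 6 library was 1.82 times the highest parental library.

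**Figure D1:**
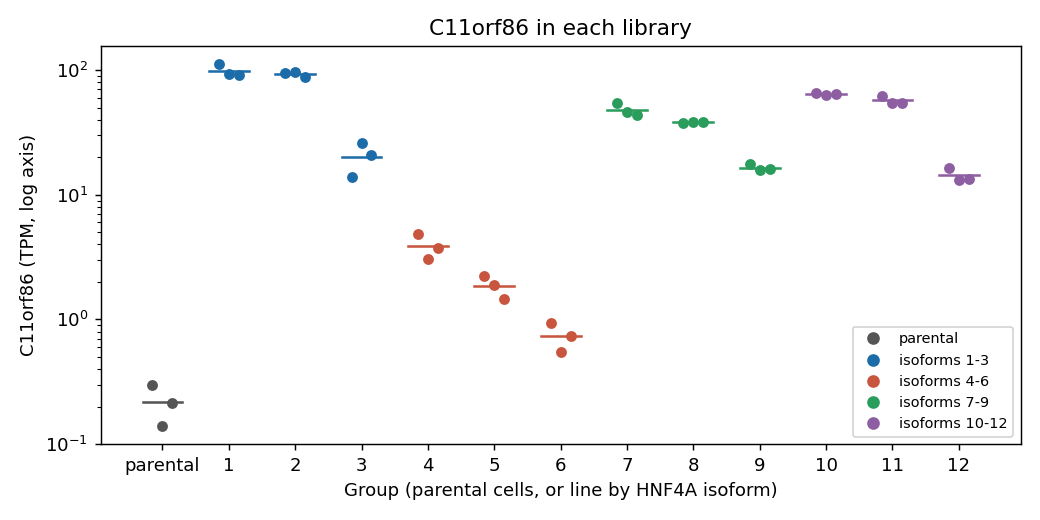
TPM of C11orf86 on a log axis in each of the 39 libraries, by group; points are libraries and short lines are group means. Isoforms 1 and 2 lie between 88.4 and 112.0 TPM, isoforms 4 to 6 between 0.547 and 4.89 TPM, and the parental libraries at or below 0.300 TPM.

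As ratios of means, C11orf86 was 454 times the parental level with isoform 1 and 430 times with isoform 2. The ratios for isoforms 10, 11, 7 and 8 were 294, 263, 221 and 175. Those of the short forms 3, 9 and 12 were 93.1, 75.8 and 65.7. Among the exon 1B lines the ratio was 18.0 for isoform 4, 8.58 for isoform 5 and 3.41 for isoform 6. The level in isoform 1 was thus far above that in isoform 6, although HNF4A RNA was high in both lines.

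On the log2(TPM + 1) scale used for all genes, which understates changes from a low level, the log2 fold change against parental cells was 6.35 in isoform 1 and 6.28 in isoform 2. Isoforms 10, 11, 7 and 8 followed with 5.74, 5.58, 5.33 and 5.01. The short forms 3, 9 and 12 had 4.08, 3.84 and 3.65. Isoforms 4, 5 and 6 had 1.99, 1.23 and 0.51. The standard error was 0.14 in each comparison. The value was above 1 in 11 lines, and isoform 6 was the exception.

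Counting rises only and leaving HNF4A aside, C11orf86 had the largest log2 fold change of all tested genes in 6 lines, isoforms 2, 3, 8, 9, 10 and 12. It ranked 2nd behind ACSL5 in isoform 7 and behind IL32 in isoform 11, and 3rd in isoform 1, where IL32 led with 6.62. In the exon 1B lines its rise ranked 7th, 28th and 204th in isoforms 4, 5 and 6. With falls counted too, by absolute size, it was 2nd in isoform 8 and ranked 13th, 54th and 435th in isoforms 4, 5 and 6.

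The authors' deposited tables gave C11orf86 log2 fold changes of 8.01, 7.80 and 4.62 for isoforms 1 to 3 and 1.62, 0.80 and 0.23 for isoforms 4 to 6. The authors' deposited values for isoforms 7 to 12 were 6.20, 5.56, 4.00, 6.44, 6.41 and 3.21. In the authors' deposited tables it ranked 1st by fold change in 4 lines, isoforms 2, 9, 10 and 11, and isoform 6 came without an adjusted p. Those ranks ran over every gene with a deposited fold change, with no expression filter and no HNF4A row left out. They are therefore not comparable with the ranks among tested genes given above. The log2 of the TPM ratio was higher than the authors' deposited fold change in every line, for example 8.83 in isoform 1, 4.17 in isoform 4 and 1.77 in isoform 6. The authors' deposited fold changes put the 12 lines in the order of their mean TPM.

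Both C11orf86 and HNF4A RNA were lower in parental cells than in every line, but among the 12 lines their levels ran in different orders. Summed over its 12 rows, HNF4A was at 31.9, 30.8 and 31.7 TPM in parental cells and averaged between 614 TPM (isoforms 2 and 11) and 1071 TPM (isoform 6) in the lines. Isoform 6, the line with the most HNF4A, had the least C11orf86. Isoform 2, one of the lines with the least HNF4A, had the second highest C11orf86. Across the 12 line means on the log2 scale Pearson's r was -0.73 and Spearman's rho was -0.64. With the lines whose HNF4A was farthest from the median left out (isoforms 6 and 9), r was -0.64. Without the exon 1B lines, which form a separate low cluster, r over 9 lines was -0.31. These values are descriptions of RNA over lines that each carry a different isoform, and HNF4A protein was not measured in these libraries.

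Per 100 TPM of HNF4A, C11orf86 came to 15.3 TPM with isoform 2 and 12.6 TPM with isoform 1. The values of isoforms 10, 11, 7 and 8 were 9.70, 9.33, 6.61 and 5.20, and those of isoforms 3, 12 and 9 were 3.08, 2.12 and 1.77. Parental cells, which have HNF4A of their own, held 0.688 ± 0.244 TPM of C11orf86 per 100 TPM of HNF4A (SD, n = 3). The exon 1B lines were below that mean, at 0.456 ± 0.106 in isoform 4, 0.218 ± 0.0387 in isoform 5 and 0.0698 ± 0.0211 in isoform 6. On this scale isoforms 5 and 6 lay below all parental libraries and isoform 4 overlapped them, although the C11orf86 level itself was higher in all 3 lines than in parental cells.

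**Figure D2:**
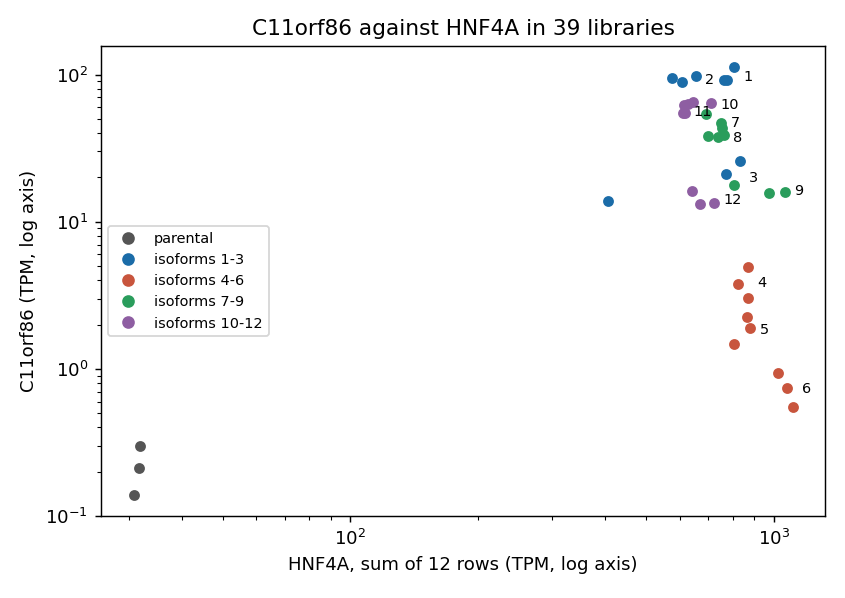
C11orf86 against the sum of the 12 HNF4A rows, both in TPM on log axes; each point is 1 of 39 libraries and numbers name the isoform of a line. The lines differ from 98.8 to 0.742 TPM in mean C11orf86 while their mean HNF4A stays between 614 and 1071 TPM.

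Within lines the relation rested on 1 library. Over the deviations of 36 libraries from their own line mean, r was 0.52 and rho was 0.06. Without the first isoform 3 library r was -0.10, and without all of isoform 3 it was -0.17 over 33 libraries. In isoform 3 the highest library had 2.05 times the HNF4A and 1.87 times the C11orf86 of the lowest. In the other lines HNF4A varied by at most 1.32 times among the 3 libraries, which leaves little range for a relation to show. The library highest in HNF4A was also highest in C11orf86 in 4 of 12 lines. Per 100 TPM of HNF4A, the isoform 3 libraries were closer to each other, at 3.40, 3.11 and 2.72 TPM.

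Lines that share one end of the protein were set side by side. The shortened C-terminus went with less C11orf86 at each of the 4 N-terminal forms, and no such pair overlapped. Isoform 3 had 0.205 times the level of isoform 1, isoform 6 had 0.190 times that of isoform 4, isoform 9 had 0.342 times that of isoform 7, and isoform 12 had 0.223 times that of isoform 10. HNF4A itself was not lower in 3 of these 4 short forms, with ratios of 1.25, 1.29 and 1.02 in isoforms 6, 9 and 12 and 0.857 in isoform 3.

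The insertion in an otherwise full C-terminus went with smaller differences. Isoform 2 had 0.946 times the level of isoform 1, and their libraries overlapped. The ratio was 0.478 for isoform 5 against 4, 0.792 for isoform 8 against 7 and 0.896 for isoform 11 against 10, and these 3 pairs did not overlap.

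At the N-terminus the added exon 1B went with the widest gap. Isoform 4 had 0.0395 times the level of isoform 1, isoform 5 had 0.0200 times that of isoform 2, and isoform 6 had 0.0367 times that of isoform 3, with HNF4A ratios of 1.09, 1.39 and 1.60. Isoforms 7 and 8 had 0.487 and 0.408 times the level of isoforms 1 and 2, whereas isoform 9 at 0.814 times isoform 3 overlapped it. Isoforms 10 and 11 stood above isoforms 7 and 8 by 1.33 and 1.50 times, and isoform 12 overlapped isoform 9 at a ratio of 0.867. Each ratio compares 1 line with 1 line.

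The genes around C11orf86 had no part in its selection and were tested. A call needed a limma p-value under 0.05 after Benjamini-Hochberg adjustment and a log2 fold change of 1 or more in either direction. The share of the 15003 tested genes called was 4.52%, 3.73% and 0.807% for isoforms 1 to 3, 0.54%, 0.293% and 0.247% for isoforms 4 to 6, 2.08%, 1.41% and 0.827% for isoforms 7 to 9, and 1.44%, 1.7% and 0.573% for isoforms 10 to 12. The neighbours were taken as the 10 nearest protein-coding genes on each side by start, in the order of the RefSeq gene table (GRCh38.p14), and all 20 passed the expression filter. In isoforms 1, 2, 7, 8, 10 and 11, 4 of the 20 were called higher, namely PC, SYT12, POLD4 and CLCF1. None of the 20 was called lower in any line, and none was called in isoforms 3, 4, 5, 6, 9 and 12. The 6 lines with these calls had the most C11orf86, and they also had the largest shares of all tested genes called. With a pseudocount of 0.1 TPM, SYT12 and CLCF1 were called in isoform 9 as well, at 1.01 and 1.09. Over the 20 genes the median log2 fold change was 0.06 in isoform 1, beside -0.11 for all tested genes, and 0.05 in isoform 2, beside -0.09. By adjusted p alone, with no minimum fold change, 9 of the 20 were higher and 6 were lower in each of these 2 lines. The share of all tested genes that passed by adjusted p alone is not given here, so these counts have no background.

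PC encodes pyruvate carboxylase, the mitochondrial enzyme that makes oxaloacetate for gluconeogenesis and lipid synthesis. It lies on the minus strand (66848233 to 66958376), and is transcribed away from C11orf86, with 16901 bases between the start sites. PC was at 7.09, 7.03 and 7.64 TPM in parental cells. It was at 24.5, 20.1 and 22.5 TPM in isoform 1 and at 29.7, 25.5 and 27.9 TPM in isoform 2. All libraries of all 12 lines lay above the parental libraries. The log2 fold change was 1.50 in isoform 1 and 1.80 in isoform 2 (SE 0.06), and the largest limma adjusted p among its 6 calls was 1.14e-16. In isoform 6 PC was at 9.44, 9.18 and 10.4 TPM, a log2 fold change of 0.37 that had a limma adjusted p of 0.000132 and was under the fold threshold.

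SYT12, a member of the synaptotagmin family of vesicle proteins, is the next gene on the other side (67006778 to 67050863, plus strand), 31.5 kb from start to start. Its parental libraries had 3.05, 2.91 and 3.01 TPM. The isoform 2 libraries had 14.8, 14.7 and 13.5 TPM, and the isoform 1 libraries 13.7, 12.9 and 12.0 TPM. The log2 fold changes of SYT12 were 1.94 in isoform 2 and 1.80 in isoform 1 (SE 0.09), and the largest limma adjusted p of its 6 calls was 7.18e-15. In the short forms SYT12 stayed lower, with 4.68, 5.98 and 5.33 TPM in isoform 3 and 5.28, 6.48 and 6.71 TPM in isoform 9. Its smallest log2 fold change was 0.26, in isoform 6.

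RHOD, which encodes a small GTPase, starts 81.5 kb away on the same side as SYT12. It was called in none of the lines. Its log2 fold change came to 0.99 in isoform 11 and 0.90 in isoform 1, just under the threshold of 1, and was -0.11 in isoform 5. RHOD passed in isoform 11 with a pseudocount of 0.1 TPM (1.02), and in isoforms 1 and 11 after rescaling by the median of ratios (1.03 and 1.08). LRFN4, a leucine-rich repeat membrane protein of synapses, starts 119 kb away on the side of PC and reached at most 0.57, in isoform 1. LRFN4 lies inside the span of PC on the opposite strand. The library kit keeps strand, but whether the authors' counting used it is not given in the sources used here, so reads of such overlapping genes may not be told apart.

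The next gene past RHOD, KDM2A, a histone demethylase that starts 144 kb away, had log2 fold changes between -0.20 and 0.01. POLD4, a small subunit of DNA polymerase delta, and CLCF1, a cytokine of the IL-6 family, start 382 and 399 kb away. POLD4 rose from 5.60, 6.14 and 5.53 TPM in parental cells to 28.1, 25.3 and 24.7 TPM in isoform 1, a log2 fold change of 2.00. CLCF1 rose from 2.08, 1.51 and 1.82 TPM to 12.4, 9.71 and 10.1 TPM in isoform 1, a log2 fold change of 2.06. The largest limma adjusted p among their calls was 9.74e-09 for POLD4 and 1.36e-09 for CLCF1. The POLD4 call in isoform 10, at a log2 fold change of 1.00, was lost without replicate 1 or 3 of the parental cells or replicate 3 of isoform 10, with values down to 0.97. Both genes lie inside the annotated span of RAD9A on the opposite strand, and RAD9A itself had log2 fold changes from -0.41 to -0.07.

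**Figure D3:**
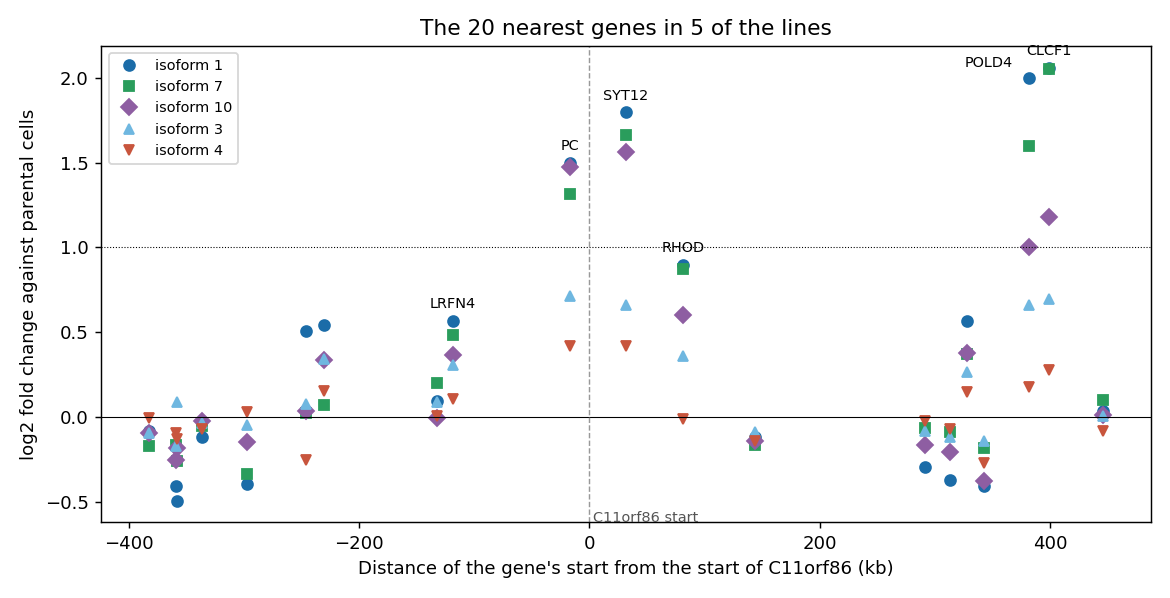
Log2 fold change against parental cells of the 20 nearest genes, by the distance of their start from that of C11orf86 in kb, in the lines of isoforms 1, 7, 10, 3 and 4; the dotted line marks the call threshold of 1. PC and SYT12 flank C11orf86 with 1.50 and 1.80 in isoform 1, KDM2A lies between -0.20 and 0.01, and POLD4 and CLCF1 reach 2.00 and 2.06 at the far right.

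Across the 13 group means the levels of several neighbours rose broadly with C11orf86, though not in the same order. PC was at 23.0, 22.7 and 23.6 TPM in isoform 8 and at 19.4, 18.9 and 20.4 TPM in isoform 7. C11orf86, in contrast, was higher in isoform 7 than in isoform 8. Pearson's r on the log2 scale was 0.94 for SYT12 and LRFN4, 0.93 for PC, 0.92 for POLD4 and CLCF1 and 0.91 for RHOD. It was -0.21 for KDM2A and -0.86 for RBM4B. Parental cells had the lowest mean of the 13 groups for C11orf86 and PC but not for RHOD, and r says nothing of the size of a change.

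The genes whose group means were most like those of C11orf86 were IL32 (r = 0.99), a cytokine, IRAK2 (0.98), a kinase of interleukin-1 and Toll-like receptor signalling, IL13RA1 (0.98), a subunit of the IL-13 receptor, and ACSL5 (0.98), an acyl-CoA synthetase of fatty acid metabolism. They were followed by TXN, MKNK1, APOBEC1, DHRS3, ARHGAP12 and LOC101928994, all at 0.97. The likeness was measured over 13 group means on the log2(TPM + 1) scale and sets no bound on size. TXN, the redox protein thioredoxin, had a log2 fold change of at most 0.38, and MKNK1, a kinase that phosphorylates a translation initiation factor, at most 0.38.

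These genes were picked for their likeness over the same group means, so their order across lines follows from the choice, and their levels are given with no test. IL32 was at 0.446, 0.524 and 0.304 TPM in parental cells and at 148, 122 and 148 TPM in isoform 1. ACSL5 was at 0.526, 0.640 and 0.485 TPM in parental cells, at 110, 93.9 and 111 TPM in isoform 1, and at 0.627, 0.619 and 0.563 TPM in isoform 4. C11orf86 was at 3.05 to 4.89 TPM in isoform 4, above all parental libraries. IL32 averaged 1.70 TPM there, and all its isoform 4 libraries also lay above its parental libraries. ACSL5, in contrast, overlapped its parental range in isoform 4.

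DHRS3, a retinaldehyde reductase, averaged 13.7 ± 2.16 TPM in parental cells and 119 ± 10.6 TPM in isoform 2 (SD, n = 3). APOBEC1, the cytidine deaminase that edits apolipoprotein B mRNA in the gut, was listed at 0 in 2 of 3 parental libraries and at 0.121 TPM in the other, and reached 48.0, 41.8 and 48.2 TPM in isoform 1. The genes with the most negative r with C11orf86 were LOC107984638 (-0.98), WWTR1 (-0.97), FZD2 (-0.96), PPP1R1B (-0.96) and IRF2BPL (-0.96). WWTR1 is the transcriptional coactivator TAZ, FZD2 a Wnt receptor and PPP1R1B a phosphatase inhibitor. PPP1R1B averaged 6.63 TPM in parental cells and 0.546 TPM in isoform 1, and FZD2 averaged 19.9 and 6.51 TPM.

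**Figure D4:**
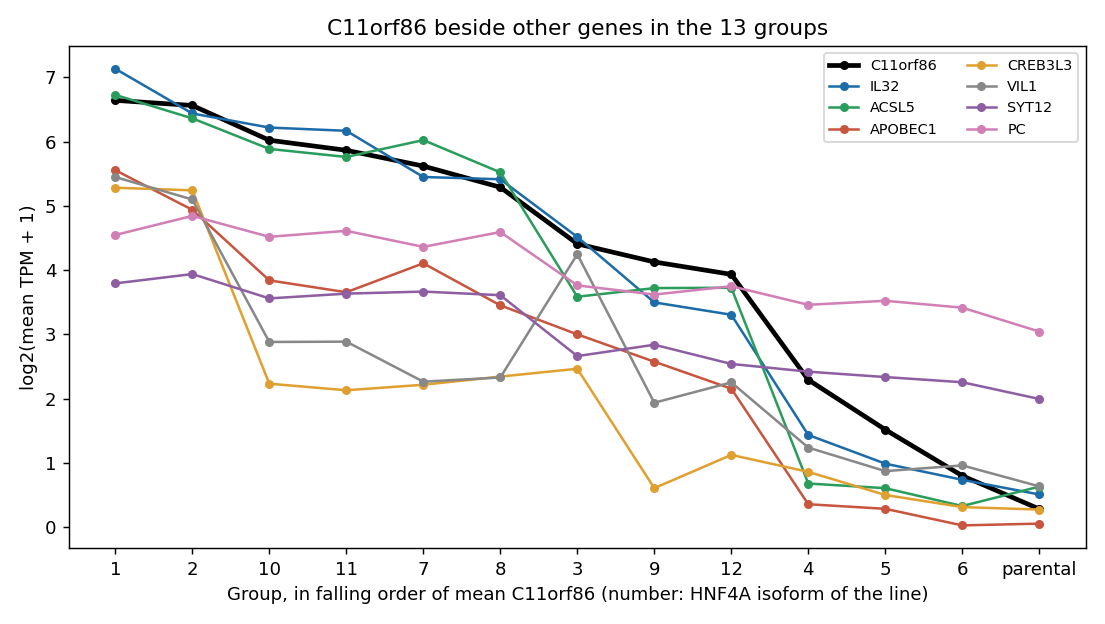
Levels as log2(mean TPM + 1) in the 13 groups, ordered by falling C11orf86, for C11orf86, IL32, ACSL5, APOBEC1, CREB3L3, VIL1, SYT12 and PC. IL32 and ACSL5 run beside C11orf86 down to isoform 12, while CREB3L3 drops from 36.8 TPM in isoform 2 to 3.70 TPM in isoform 10.

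Leaving HNF4A and C11orf86 aside, SEMA3B, TRIM10 and CAMK2N1 were called higher in 11 lines, and SPARC and FGFBP1 were called lower in all 12. With a pseudocount of 0.1 TPM, TRIM10 was called in isoform 6 as well, at 1.29. SEMA3B, a secreted semaphorin, was at 4.57, 4.65 and 4.85 TPM in parental cells, 73.3, 66.3 and 70.5 TPM in isoform 2 and 9.85, 8.40 and 8.01 TPM in isoform 6. TRIM10, a RING-finger protein, went from 1.46 to 15.8 TPM in isoform 1, and its r with C11orf86 was 0.92. CAMK2N1, an inhibitor of CaM kinase II, differed in order. Its highest log2 fold change, 1.66, was in isoform 4, where C11orf86 was low, and its r was 0.68. Its call in isoform 3 was lost without replicate 2 of the parental cells or replicate 2 or 3 of that line, with values down to 0.87. SPARC, a matrix protein, was lowest in isoform 2 with a log2 fold change of -4.03, and FGFBP1, which carries fibroblast growth factors, had -2.76 there. The FGFBP1 calls in isoforms 6 and 9 were lost without replicate 3 of isoform 6 (-0.98), or without replicate 2 of the parental cells or replicate 3 of isoform 9 (as little as -0.91).

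CREB3L3 was looked up because of the synonym, after the other values had been seen. It was at 0.251, 0.182 and 0.198 TPM in parental cells, 43.3, 36.6 and 33.8 TPM in isoform 1 and 36.8, 41.7 and 32.0 TPM in isoform 2. It was called in 7 lines, isoforms 1, 2, 3, 7, 8, 10 and 11. With a pseudocount of 0.1 TPM it was called in isoforms 4, 9 and 12 as well, at 1.53, 1.00 and 2.04. Below 1 TPM in parental cells, CREB3L3 was tested only because it was high in some lines. The calls of CREB3L3 are therefore given as values and support nothing about the synonym. Its order was not that of C11orf86. CREB3L3 averaged 3.70 TPM in isoform 10 and 0.525 TPM in isoform 9, where C11orf86 averaged 63.9 and 16.5 TPM, and its r over the 13 groups was 0.81.

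Of 21 genes taken as known targets of HNF4A, most of them hepatic or intestinal, 5 averaged 1 TPM or more over all 39 libraries and were tested. Of these 5, VIL1, LGALS4 and APOA1 averaged 0.554, 0.137 and 0.274 TPM in parental cells, so they passed that filter only through the lines in which they were high. The calls of these 3 genes are therefore given as values and support nothing about the list. VIL1, the microvillus protein villin, was called higher in 9 lines, LGALS4, a gut galectin, in 8, F10, coagulation factor X, in 3, and APOA1, an apolipoprotein, in 2. MTTP, the lipid transfer protein, was called in none. APOA1 averaged 5.54 TPM in isoform 1 and 3.74 TPM in isoform 2, and it was below 1 TPM in every other group. None of the 5 was called in the exon 1B lines. With a pseudocount of 0.1 TPM, VIL1 was called in isoform 4 (1.17), LGALS4 in isoform 9 (1.80) and APOA1 in isoforms 10 and 11 (1.29 and 1.00) as well. Of the targets left untested, TM4SF5, APOA4 and APOC3, named after their values were seen, averaged 3.45, 2.52 and 2.56 TPM in isoform 1. In parental cells TM4SF5 and APOA4 were listed at 0 and APOC3 averaged 0.0956 TPM. With no filter the list gave 27 calls over the 12 lines in place of 22. VIL1 showed another order from C11orf86. It was at 9.91, 20.7 and 23.4 TPM in isoform 3 but at 4.20, 3.28 and 3.94 TPM in isoform 7, whereas C11orf86 was higher in isoform 7 than in isoform 3.

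Of 13 genes of the enterocyte brush border, 7 were tested. Besides VIL1, MISP, an actin-bundling protein, was called higher in 7 lines and USH1C, a scaffold of microvillus tip links, in 4. ESPN, EPS8, PLS1 and EZR were called in none. MISP was at 10.4, 10.1 and 11.1 TPM in parental cells and 76.3, 77.3 and 79.9 TPM in isoform 2, and its r with C11orf86 was 0.92. The USH1C call in isoform 3, at 1.13, was lost without replicate 3 of that line, at just under the threshold. With a pseudocount of 0.1 TPM USH1C was called in isoform 12 as well, at 1.04. The median log2 fold change of the 7 genes, VIL1 included, was 0.83 in isoform 1 and 0.15 in isoform 6, beside -0.11 and -0.01 over all tested genes. VIL1 passed the filter only through lines in which it was high, so its calls and this median support nothing about the list.

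Of 15 transcription factors of gut and liver epithelium, 9 were tested and 2 were called, both in isoform 1. KLF4, a factor of differentiating gut epithelium, was higher with a log2 fold change of 1.04, and FOXA1, a forkhead factor, was lower with -1.09. Both values lay close to the threshold of 1. Without the first isoform 1 library they were 0.999 and -0.99, and neither was called. FOXA1 was -0.99 and not called when TPM were rescaled by the median of ratios, which moved the median of all genes in isoform 1 from -0.11 to 0.02. That rescaling added calls of PPARG (1.13 and 1.01) and PPARA (1.08 and 1.09) in isoforms 1 and 2. With a pseudocount of 0.1 TPM, FOXA1 was also called lower in isoforms 2, 7 and 11 (-1.11, -1.03 and -1.04). GATA6 was then called lower in isoforms 7 and 11 (-1.18 and -1.05). PPARG was then called higher in isoform 1 (1.05), and PPARA in isoforms 1 and 2 (1.03 and 1.05). FOXA1 ran opposite to C11orf86 over the 13 groups (r = -0.91), with 5.51 TPM in parental cells and 2.06 TPM in isoform 1. CDX2, the intestinal homeobox factor, was called in none of the lines and lay between -0.67 and 0.02. The median of the 9 factors was -0.25 in isoform 1.

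RefSeq promoter windows (GRCh38.p14, 250 bases before to 50 after the start) were read for the 10 most similar genes, all of which had one. C11orf86 itself had no window there, so its own promoter was not read. Among 35116 windows in the table, 0.384% held the HNF4-specific site CAAAGTCCA on either strand and 6.97% held it with at most 1 mismatch. The 10 genes had 16 windows, some of them overlapping. Of these windows, 1 held the exact site and 1 more held it with 1 mismatch. A match with 1 mismatch also lay in 1 window of WWTR1, whose levels ran opposite to C11orf86, and in 1 window of SEMA3B. The stretches around the first 2 matches are shown as examples from the most similar genes, and capitals mark the match. That of APOBEC1 is read on the minus strand of chr12:7665912-7665952, 28 bases before the start. That of IL32 is read on the plus strand of chr16:3065318-3065358, 69 bases before the start, with the site on the opposite strand.
APOBEC1: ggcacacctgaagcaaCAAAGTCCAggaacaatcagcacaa
IL32: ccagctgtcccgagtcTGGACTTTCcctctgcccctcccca
A match is a description of the letters and was not tested for binding.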

How the data were processed

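Poly(A) RNA libraries of 39 samples in 13 groups were analysed. The submitters' processing notes name Trimmomatic 0.36, FastQC 0.11.5, kallisto 0.44.0, DESeq2 1.22.2 and GRCh38.p12. The authors deposited 13 tables of TPM, 1 per group, with 45446 rows. TPM keep no read depth, so no counting interval was computed. The authors' tables of the 12 lines also hold, per the file headers, a mean normalised count (a signal), log2 fold changes and their errors, a score for the test, and p-values raw and adjusted. From these deposited columns only values for C11orf86 are printed, and none entered a fit.

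The 12 HNF4A rows were summed. For isoforms 4 and 5 the labels give no usable replicate number. The isoform 4 and 5 tables had 29 row names that differed from the others, and names were taken from the parental table by row order. For those 2 lines the columns could be matched to the group only, while the columns of the other libraries matched a label each. No 2 libraries were copies, since identical values reached at most 0.00772% in a pair.

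The 15003 genes that averaged 1 TPM or more were tested with limma 3.58.1 in R 4.3.3 on log2(TPM + 1), with 13 group means and 26 residual degrees of freedom. The 12 contrasts share the 3 parental libraries. The fit was tested on simulated data. Correlations carry no p-value. Named genes were C11orf86, HNF4A, the 10 genes most like it and 5 most opposite, neighbours called in a line or among the 2 nearest on each side, called list genes, and genes called in at least as many lines as the 11 in which C11orf86 changed by 1 or more. Other genes named (RBM4B, KDM2A, RAD9A, CDX2, GATA6, PPARA, PPARG, CREB3L3, TM4SF5, APOA4, APOC3) were chosen after their values were seen. The gene, its lists and the tests were chosen with earlier results of these data known. Alternatives were other pseudocounts, scaling, filters, thresholds, a replicate block and leaving out single libraries.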

Additional observations from a re-analysis of the deposited data

How the results depend on the processing

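With a pseudocount of 0.1 TPM the log2 fold changes of C11orf86 in isoforms 1 to 12 were 8.31, 8.23, 5.99, 3.66, 2.64, 1.41, 7.27, 6.94, 5.74, 7.69, 7.53 and 5.53, so that isoform 6 was then above 1 as well. Over single left-out libraries its value ranged most widely in isoform 3, from 3.89 to 4.32, and in isoform 4, from 1.85 to 2.13. It ranged from 4.96 to 5.06 in isoform 8 and from 5.69 to 5.79 in isoform 10, and the number of lines in which it ranked first ranged from 5 to 7. The neighbours gave 24 calls over the 12 lines, 23 to 25 with a library left out, 26 after median-of-ratios scaling, 27 with the smaller pseudocount and 120 with no minimum fold change. Without that minimum the brush border genes gave 56 calls in place of 20 and the transcription factors 68 in place of 2. The share of all tested genes called without the minimum is not given here, so such counts have no background. The transcription factors gave 10 calls with the smaller pseudocount, 5 after scaling, 1 with a filter of 5 TPM and 1 to 3 with a library left out. The HNF4A targets gave 12 calls with the 5 TPM filter in place of 22, where fewer genes were tested. With linear TPM the relation to HNF4A was -0.58 between and 0.29 within lines. Left-out libraries moved the latter between -0.10 and 0.58, with -0.10 and 0.34 without the first and second isoform 3 library. Dropping the minimum fold change can only add calls, and a smaller pseudocount enlarges log ratios from a low level by arithmetic. What lay behind the other shifts was not tested.

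Replicate numbers paired the libraries weakly at most. Same-numbered libraries of different groups had a median correlation of 0.05 (range -0.18 to 0.23), with 38 of 165 pairs over 0.1. Differently numbered libraries of different groups had a median of -0.03 (range -0.23 to 0.29). Isoforms 4 and 5 have no usable replicate number and were left out of this check. With the replicate block the neighbours again gave 24 calls, and no list count changed. The fold changes of C11orf86 could not move, because each numbered group holds a library of every number. The libraries of isoforms 4 and 5 entered that fit without a block term. The parental level of C11orf86 rests on few reads, which limits every ratio to it.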
